A study of Mus musculus with 6 samples.

Results

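The Toll-like receptors are the innate receptors through which macrophages, other leukocytes and some tissue cells sense microbial products and debris of damaged cells. The 10 genes described here are Tlr1 to Tlr9 and Tlr13, chosen by gene symbol, and each was measured by 1 of the 25206 probe sets of the arrays. They were followed in aged choroid plexus of C57BL/6J mice at 20 to 22 months (n = 3) and young choroid plexus of the same strain at 2 to 3 months (n = 3). The choroid plexus is the vascularised tissue of the brain ventricles whose epithelium secretes cerebrospinal fluid. Each array came from its own mouse, per the labels, which give no sex, batch, treatment or genetic change. Values are the authors' log2 expression values, with 1 probe set for each Entrez gene.

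Each receptor has a ligand-binding domain of leucine-rich repeats and a cytoplasmic TIR domain that recruits adaptor proteins. Tlr1, Tlr2, Tlr4, Tlr5 and Tlr6 act mainly at the cell surface, and Tlr3, Tlr7, Tlr8, Tlr9 and Tlr13 sense nucleic acids inside endosomes. Most signal through the adaptor Myd88 to NF-kB and cytokine genes, Tlr3 signals through Ticam1, and Tlr4 uses both. In the choroid plexus, stromal and surface macrophages are well known carriers of these receptors, and endothelial and epithelial cells can carry some of them.

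The epithelial label of the tissue was checked first. All 11 epithelial markers lay above the background guide on all 6 arrays, and their mean was 11.12 to 11.19 on the aged arrays and 10.91 to 11.22 on the young arrays. The background guide is the 95th percentile of the means of 1350 olfactory and vomeronasal receptor probe sets, 3.46 on the log2 scale. Array medians were 4.03 to 4.09, correlations between arrays ran from 0.982 to 0.990, and the scale of young array 1 ended at 12.1, against 13.3 on the others. Some arrays stood apart in other cell types. The immunoglobulin gene Ighm was at 5.90, 5.49 and 9.58 on aged arrays 1 to 3 and no higher than 4.88 on the young arrays, and the mean of 3 neuron markers was 8.07 on aged array 1 and 5.35 on aged array 2, against 6.32 to 6.69 on the young arrays.

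No Toll-like receptor passed the test for a difference with age: 0 of 10 had a limma adjusted p under 0.05, where 0.0793% of all probe sets did, 0.0595% higher and 0.0198% lower. Tlr4, the receptor for bacterial lipopolysaccharide, was the member with the clearest difference and was lower on all 3 aged arrays, at 0.651 times the young level. It was also the only one of the 10 with an unadjusted p under 0.05. Over all probe sets, 3.96% were lower at that level and 3.82% higher, or 7.77% in either direction. The aged and young values of the other 9 members overlapped. Of all probe sets, 6.93% had every aged value below every young value and 6.69% had every aged value above, 13.6% together.

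Of the 10 differences 8 were positive and 2 negative, with a median of 0.20 on the log2 scale. Over all probe sets 12485 of 25206 were positive, and the median was -0.0018. Only 4 of the 10 receptors, Tlr2, Tlr3, Tlr4 and Tlr5, lay above the background guide on all 6 arrays. Tlr7, Tlr8, Tlr9 and Tlr13 did so on some arrays, and Tlr1 and Tlr6 on none. RMA compresses differences near background, so the differences of these dim genes can be understated.

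**Figure D1:**
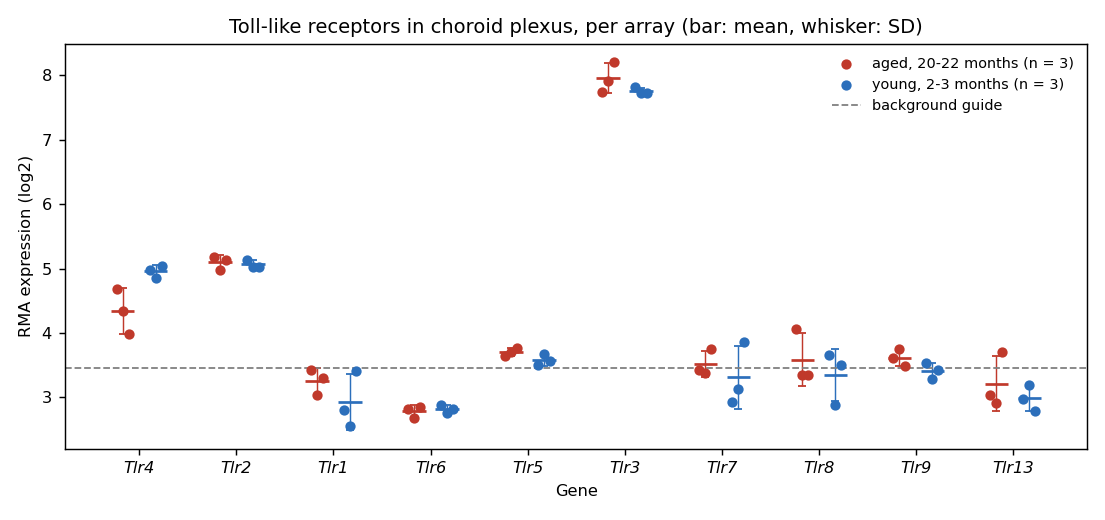
Expression of the 10 Toll-like receptors on each array (log2, vertical axis), aged in red to the left of young in blue, with bars for the mean and whiskers for the SD (n = 3 each), and the background guide at 3.46 dashed. The 3 aged Tlr4 values, 3.98 to 4.69, lie below the 3 young values, 4.86 to 5.03, while the groups overlap for the other 9 genes. Heights of different genes are not comparable, since each has its own probes.

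The 250 bases before the start of Tlr2 and Tlr3 are shown because these members stood far above background without a difference passing the test, and those of Cd180 and Ly86 because this receptor pair, described below, was higher on every aged array. The sequences are from RefSeq, build GRCm38.p6, 5′ to 3′ on the gene's strand, and 8 of the 10 members matched an entry. Capitals mark matches, on either strand, to the kappa-B consensus (the site of NF-kB), the PU.1 core GAGGAA, the interferon-stimulated response element core (GAAA, any 2 bases, GAAA) or the AP-1 site TGANTCA. Of the listed starts of Cd180, the more upstream one is shown.
Tlr2, chr3:83841609-83841858, minus strand: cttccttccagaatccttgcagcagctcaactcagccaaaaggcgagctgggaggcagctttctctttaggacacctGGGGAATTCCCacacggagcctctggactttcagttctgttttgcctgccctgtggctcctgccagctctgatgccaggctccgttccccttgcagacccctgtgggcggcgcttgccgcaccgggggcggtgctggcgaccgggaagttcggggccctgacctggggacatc
Tlr3, chr8:45410381-45410630, minus strand: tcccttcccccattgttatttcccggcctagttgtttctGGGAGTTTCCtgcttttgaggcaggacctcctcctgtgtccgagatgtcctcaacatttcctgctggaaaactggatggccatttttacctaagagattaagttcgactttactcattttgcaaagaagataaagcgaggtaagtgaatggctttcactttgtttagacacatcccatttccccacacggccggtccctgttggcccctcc
Cd180, chr13:102693297-102693546, plus strand: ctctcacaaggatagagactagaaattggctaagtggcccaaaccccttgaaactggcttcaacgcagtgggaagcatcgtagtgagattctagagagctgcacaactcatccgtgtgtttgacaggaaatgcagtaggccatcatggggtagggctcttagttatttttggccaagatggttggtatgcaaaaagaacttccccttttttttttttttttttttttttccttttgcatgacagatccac
Ly86, chr13:37345095-37345344, plus strand: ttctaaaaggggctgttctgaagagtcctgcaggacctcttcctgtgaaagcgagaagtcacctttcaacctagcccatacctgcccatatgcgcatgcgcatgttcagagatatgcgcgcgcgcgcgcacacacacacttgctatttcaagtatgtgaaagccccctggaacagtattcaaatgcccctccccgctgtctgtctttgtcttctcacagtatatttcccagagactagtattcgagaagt
Tlr2 and Tlr3 each held 1 stretch matching kappa-B, overlapping no other motif searched. Of all 32851 promoter windows of this length, 7.25% held such a match. None of the 4 motifs was found in the windows of Cd180 and Ly86. The PU.1 core was present in 23.3% of all windows, the interferon element in 2.98% and the AP-1 site in 6.75%. These matches describe the letters only.

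Tlr4 (Entrez gene 21898) binds lipopolysaccharide together with the co-receptors Ly96, also called MD-2, and Cd14. Its log2 values were 4.69, 4.34 and 3.98 in aged choroid plexus, against 4.99, 4.86 and 5.03 in young choroid plexus. All aged values lay below all young ones, and the aged values were spread more widely. The means were 4.34 ± 0.35 in aged and 4.96 ± 0.09 in young tissue (SD, n = 3 each). The difference was -0.62 with a 95% interval of -1.03 to -0.21, or a fold of 0.651 with an interval of 0.489 to 0.866. It did not pass over all probe sets (limma unadjusted p = 0.00862, adjusted p = 0.457). In the authors' deposited table, Tlr4 has a signed fold of -1.51, a q-value of 0.457 over all probe sets and 0.298 over the filtered subset. That fold is close to the inverse of 0.651, and how the authors averaged it is not given in the files.

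With any array left out, the Tlr4 difference stayed negative, between -0.80 without aged replicate 1 and -0.44 without aged replicate 3, and its adjusted p lay between 0.154 and 0.746. The means of some cell type marker lists were also lower on the aged arrays. The mean of 12 endothelial markers was 4.65 to 4.75 on the aged arrays and 4.96 to 5.52 on the young arrays. That of 7 fibroblast markers was 5.37 to 5.77 on the aged arrays and 5.87 to 6.70 on the young arrays, and that of 7 mural cell markers 4.83 to 4.94 on the aged arrays and 5.13 to 5.70 on the young arrays. With an unadjusted limma p under 0.05, 9 of the 12 endothelial, 3 of the 7 fibroblast and 2 of the 7 mural markers were lower. None was higher at that level, and none had an adjusted p under 0.05. Over all probe sets 3.96% were lower at that level. The mural marker Cspg4 had a positive difference, 0.22 (SE 0.13). The part of these cell types in the Tlr4 values was not tested. In bulk tissue, fewer cells of a type and less RNA per cell cannot be told apart.

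The macrophage list ran the other way. The mean of its 18 measured markers was 4.78 to 5.40 on the aged arrays and 4.25 to 4.68 on the young arrays. In this list 13 markers were higher and 2 lower with an unadjusted limma p below 0.05, none with an adjusted one, and the median difference was 0.77. With any array left out, 10 to 12 were higher. The lower ones were Pf4, a marker of resident border macrophages, with a difference of -0.44 (SE 0.13), and the scavenger receptor Cd163, which was under the background guide on all arrays. Over the whole list 14 differences were positive and 4 negative. The other negative ones were Mrc1 at -0.29 (SE 0.22) and Lyve1 at -0.31 (SE 0.26), whose groups overlapped. The markers with the smallest p were Ms4a7, another border macrophage gene, at 1.64 (SE 0.27), the complement gene C1qa at 0.98 (SE 0.25) and the Fc receptor chain Fcer1g at 1.01 (SE 0.26).

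**Figure D2:**
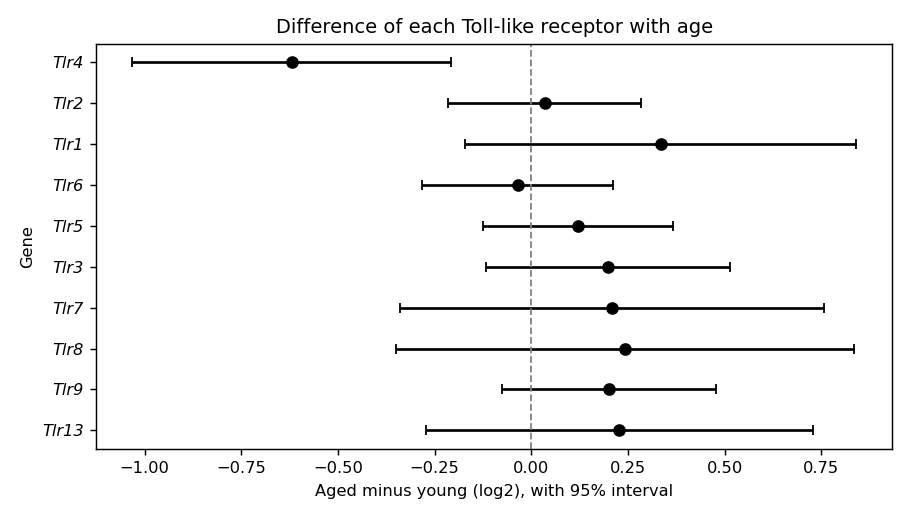
Difference of each Toll-like receptor between aged and young choroid plexus (aged minus young, log2, horizontal axis), with 95% intervals from limma (n = 3 each). The interval of Tlr4, -1.03 to -0.21, is the only one of the 10 that does not include 0, before adjustment for the number of probe sets.

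Tlr2 (Entrez gene 24088) recognises bacterial lipoproteins as a pair with Tlr1 or Tlr6. Its log2 values were 5.18, 4.98 and 5.14 in aged tissue, against 5.14, 5.03 and 5.03 in young tissue. The groups overlapped almost fully. The difference was 0.034 with an interval of -0.22 to 0.29 (limma adjusted p = 0.962), so a change with age beyond a fold of 0.861 to 1.22 lies outside the 95% interval.

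Its partner Tlr1 (Entrez gene 21897) was at 3.43, 3.04 and 3.31 in aged tissue, against 2.81, 2.56 and 3.40 in young tissue. The aged values lay above those of young arrays 1 and 2, and young array 3 reached the aged range. The difference was 0.34 with an interval of -0.17 to 0.84 (limma adjusted p = 0.768). With 1 array left out it lay between 0.15 without young replicate 2 (unadjusted p = 0.496, adjusted p = 0.943) and 0.58 without young replicate 3 (unadjusted p = 0.0100, adjusted p = 0.453). Tlr1 was under the background guide on all 6 arrays. Young array 3 also had the highest list mean of the young arrays for macrophages (4.68), B and plasma cells (3.36), endothelium (5.52), fibroblasts (6.70), mural cells (5.70), neurons (6.69), astrocytes (6.68) and oligodendrocytes (7.95), among others, and their part in the Tlr1 value was not tested.

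Tlr6 (Entrez gene 21899), the other partner of Tlr2 and the neighbour of Tlr1 in the genome, was at 2.83, 2.68 and 2.85 in aged tissue, against 2.89, 2.76 and 2.83 in young tissue. The values were under the guide throughout and overlapped. The difference was -0.035 with an interval of -0.28 to 0.21 (limma adjusted p = 0.961). Tlr1 and Tlr6 are close paralogs, and how far their probes tell them apart was not tested.

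Tlr5 (Entrez gene 53791), the receptor for bacterial flagellin, was at 3.64, 3.71 and 3.76 in aged tissue, against 3.51, 3.68 and 3.56 in young tissue. These values lay just above the guide, and the lowest aged one was below the highest young one. The difference was 0.12 with an interval of -0.12 to 0.37 (limma adjusted p = 0.825), and it lay between 0.082 without young replicate 1 and 0.17 without young replicate 2.

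Among the endosomal receptors, Tlr3 (Entrez gene 142980), which senses double-stranded RNA, stood well above background. Its log2 values were 7.75, 7.91 and 8.20 in aged tissue, against 7.81, 7.72 and 7.73 in young tissue. Aged array 3 was the highest, aged array 1 lay within the young range, and the young values were tight, with an SD of 0.05 against 0.23 in aged tissue. The difference was 0.20 with an interval of -0.12 to 0.51 (limma adjusted p = 0.778). With 1 array left out it lay between 0.075 without aged replicate 3 and 0.30 without aged replicate 1 (unadjusted p = 0.0692, adjusted p = 0.613).

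Tlr7 (Entrez gene 170743) senses single-stranded RNA and lies next to Tlr8 on the X chromosome. Its log2 values were 3.42, 3.39 and 3.75 in aged tissue, against 2.94, 3.14 and 3.86 in young tissue. The highest value of all was that of young array 3, and the other young values lay below the aged ones. The difference was 0.21 with an interval of -0.34 to 0.76 (limma adjusted p = 0.870). With 1 array left out it lay between 0.021 without young replicate 1 and 0.48 without young replicate 3 (unadjusted p = 0.0200, adjusted p = 0.503), and it was 0.093 without aged replicate 3 and 0.12 without young replicate 2.

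Tlr8 (Entrez gene 170744), whose human counterpart senses RNA fragments, was at 4.06, 3.35 and 3.35 in aged tissue, against 3.65, 2.89 and 3.50 in young tissue. The spread within each age group exceeded the distance between the groups. The difference was 0.24 with an interval of -0.35 to 0.84 (limma adjusted p = 0.856), and it was 0.0059 without aged replicate 1, 0.013 without young replicate 2 and between 0.32 and 0.40 without any other array, highest without young replicate 1.

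Tlr9 (Entrez gene 81897), which senses unmethylated CpG DNA, was at 3.61, 3.75 and 3.49 in aged tissue, against 3.53, 3.29 and 3.43 in young tissue. The groups overlapped in a narrow range around the guide. The difference was 0.20 with an interval of -0.08 to 0.48 (limma adjusted p = 0.747), and it lay between 0.14 without aged replicate 2 and 0.26 without aged replicate 3. Tlr9 and Tlr7 are also known from B cells and plasmacytoid dendritic cells. The mean of 9 B and plasma cell markers was 3.50, 3.52 and 5.03 on aged arrays 1 to 3 and 3.14 to 3.36 on the young arrays. The largest differences in that list were those of Ighm (2.48), Igkc (2.21) and Jchain (1.73). Of the 9 markers 7 had a positive difference and 2 a negative one, Cd79b and Pax5 at -0.28 each. Only Ighm and Igkc had a mean above the guide. Aged array 3, where that list was highest, had the lowest Tlr9 value of the aged arrays and the highest Tlr7 value. The mean of 6 plasmacytoid dendritic cell markers was 4.46 to 4.52 on the aged arrays and 4.45 to 4.46 on the young arrays. Of these 6 markers, Pacsin1, a gene also known from neurons, differed by 0.42 (SE 0.17) and Klk1, under the guide on all arrays, by -0.41 (SE 0.15), both with an unadjusted limma p under 0.05. The part of B cells and plasmacytoid dendritic cells in the Tlr7 and Tlr9 values was not tested.

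Tlr13 (Entrez gene 279572), a mouse receptor for bacterial ribosomal RNA, was at 3.03, 2.91 and 3.70 in aged tissue, against 2.98, 3.20 and 2.79 in young tissue. Aged array 3 alone lay above the guide. The difference was 0.23 with an interval of -0.27 to 0.73 (limma adjusted p = 0.837). It was -0.016 without aged replicate 3, 0.13 without young replicate 3 and up to 0.38, without aged replicate 2. Aged array 3 had the highest list mean for macrophages (5.40), and also for B and plasma cells (5.03), T cells (3.21) and neutrophils (2.97). The part of RNA of these cells in the Tlr13 value was not tested. Tlr11 and Tlr12, the remaining mouse family members, were under the guide on all 6 arrays, with differences of 0.29 (SE 0.18) and -0.035 (SE 0.12).

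The genes for the proteins that deliver the Tlr4 ligand were not lower with it. Cd14, which passes lipopolysaccharide to Tlr4, was at 4.10, 3.79 and 4.90 in aged tissue, against 2.80, 3.26 and 3.36 in young tissue. The young values lay under the guide and every aged value above it. The difference was 1.13 with an interval of 0.47 to 1.78 (limma unadjusted p = 0.00419, adjusted p = 0.389). Ly96, the subunit of the Tlr4 complex that holds the ligand, was at 7.04, 7.23 and 7.30 in aged tissue, against 7.05, 7.09 and 7.35 in young tissue, and differed by 0.026 with an interval of -0.28 to 0.33. Lbp, the serum protein that binds lipopolysaccharide, differed by 0.19 with an interval of -0.13 to 0.51.

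Cd180 is a Toll-like receptor homolog without a TIR domain, which pairs with Ly86 as Tlr4 pairs with Ly96, and is known to restrain Tlr4 on myeloid cells. Cd180 was at 4.16, 4.11 and 5.05 in aged tissue, against 3.83, 3.42 and 3.90 in young tissue, a difference of 0.72 (SE 0.26, limma adjusted p = 0.563). Ly86 was at 6.00, 5.67 and 6.60 in aged tissue, against 5.51, 5.27 and 5.48 in young tissue, a difference of 0.67 (SE 0.22, limma adjusted p = 0.521). All 3 aged values of each gene exceeded all young values, aged array 3 was the highest, and without that array the differences were 0.42 for each. Of the 6 co-receptor genes, Cd14, Cd180 and Ly86 were higher at an unadjusted p under 0.05 and none was lower, and without young replicate 2 only Cd14 was. Over all probe sets 3.82% were higher at that level. The scavenger receptor Cd36, another partner of Tlr2, differed by 0.024 (SE 0.52) with all arrays, with aged values of 2.76, 2.86 and 4.93. Without aged replicate 3 the Cd36 difference was -0.68 (limma unadjusted p = 0.0024, adjusted p = 0.407). Of the 6 fits without 1 array, only this 1 had an unadjusted p under 0.05 for Cd36.

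Within arrays, Tlr4 relative to Cd14 was lower in aged tissue by a log2 difference of -1.75, Tlr4 relative to Cd180 by -1.34 and Tlr4 relative to Ly96 by -0.65. In each of these 3 pairs the aged ratios lay below the young ones. The two-sided exact permutation p was 0.10 for each, also after adjustment over the 3 pairs, which is the smallest p that 3 against 3 arrays allow. The pairs were chosen after the values were seen. For the pairs with Cd14 and Cd180 the outcome followed from the separations given above, so their p could only be 0.10 and adds no support. Ly96 differed by only 0.026, so the pair with Ly96 largely restates the Tlr4 difference, and its p adds no support either.

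**Figure D3:**
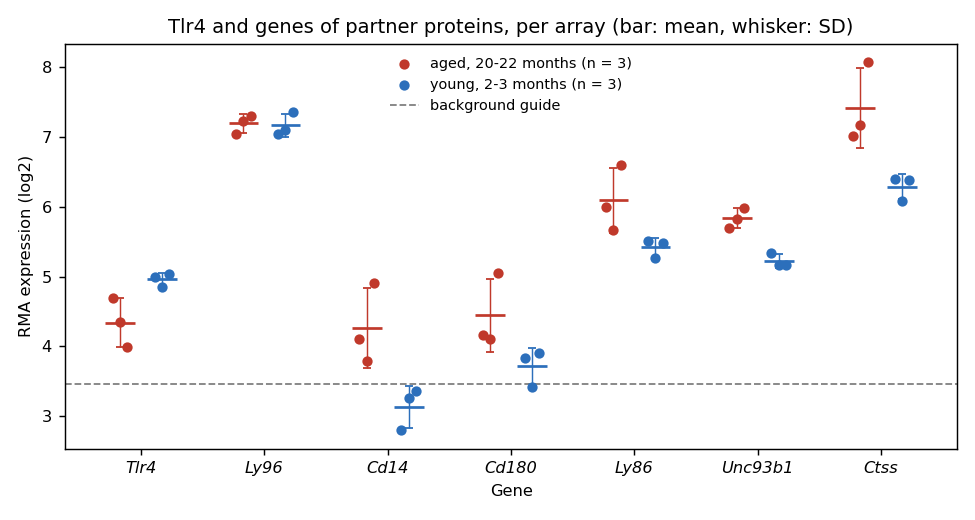
Expression of Tlr4 and of genes for proteins that work with Toll-like receptors on each array (log2, vertical axis), aged in red to the left of young in blue, with mean and SD (n = 3 each) and the background guide dashed. Tlr4 is lower on the aged arrays, Ly96 overlaps, and Cd14, Cd180, Ly86, Unc93b1 and Ctss are higher on all 3 aged arrays, none with an adjusted p under 0.05.

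The endosomal receptors depend on Unc93b1, a chaperone that carries them from the endoplasmic reticulum, and on proteases that cleave them into their active form. Unc93b1 was at 5.70, 5.82 and 5.99 in aged tissue, against 5.34, 5.16 and 5.17 in young tissue. The groups did not overlap and the spread within each was small. The difference was 0.61 with an interval of 0.33 to 0.89 (limma unadjusted p = 0.00102, adjusted p = 0.246). The lysosomal protease Ctss differed by 1.13 (SE 0.26, adjusted p = 0.360) and the endolysosomal exonuclease Pld4, which degrades Tlr9 ligands, by 1.09 (SE 0.25, adjusted p = 0.360). Of the 15 genes of trafficking and processing measured, these 3 were higher at an unadjusted p under 0.05 and none was lower. Over all probe sets 3.82% were higher at that level. The intervals of Tlr3, Tlr7, Tlr8, Tlr9 and Tlr13 given above all include 0.

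The signalling genes downstream of the receptors follow by role. Beside each count stands the share over all probe sets, of which 7.77% had an unadjusted p under 0.05. Among 6 adaptors, the shared adaptor Myd88 was at 5.24, 5.55 and 5.18 in aged tissue, against 5.46, 5.42 and 5.61 in young tissue, a difference of -0.18 (SE 0.13), and its bridging adaptor Tirap differed by -0.25 (SE 0.14). Sarm1, a TIR protein that is also an NAD-cleaving enzyme of neurons, had a difference of 0.40 (SE 0.13, limma unadjusted p = 0.0154, adjusted p = 0.510), with an unadjusted p above 0.05 without young replicate 1. Of 19 kinases and ubiquitin enzymes 1 had an unadjusted p under 0.05, the ligase Traf3, at a difference of -0.25 (SE 0.10). The median difference of the 19 was -0.034.

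Of 12 transcription factors 2 had an unadjusted p under 0.05, both higher, Irf8, a factor of myeloid cells, at 0.48 (SE 0.14) and the NF-kB subunit Rel at 0.27 (SE 0.11). Of 14 inhibitors 1 did, the RNase Zc3h12a, at 0.29 (SE 0.13). Of all probe sets, 7.77% had such a p, 3.82% higher and 3.96% lower. Traf3, Rel and Zc3h12a each kept an unadjusted p under 0.05 in 1 of the 6 fits without 1 array, and Irf8 in all 6. Among 25 target genes 4 were higher at that level and none lower: the chemokine Ccl3 at 1.07 (SE 0.20), the iron-binding protein Lcn2 at 1.92 (SE 0.47), the adhesion molecule Icam1 at 0.58 (SE 0.16) and Il1b, which was under the guide on all arrays, at 0.30 (SE 0.12). Of the 25 targets 14 were under the guide on all arrays, among them Tnf and Il6. Among 11 other innate sensors Sting1, an adaptor for cytosolic DNA, and Nod2, a sensor of bacterial peptidoglycan fragments, had differences of 0.38 (SE 0.14) and 0.34 (SE 0.14), both with an unadjusted p under 0.05. Of these sensors none passed that level without aged replicate 3, young replicate 2 or young replicate 3, and of the targets 3 to 6 did with an array left out. Ccl3, Lcn2 and Icam1 kept that level in all 6 of these fits and Il1b in 2. No gene of these lists had a limma adjusted p under 0.05.

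Together, 110 of the 113 pathway genes listed were measured, of which 16 were higher and Traf3 alone was lower at an unadjusted p under 0.05, with a median difference of 0.06. The lists were drawn up with earlier results of these data known, which had shown several of these genes. The deposited table's own annotation marks 98 probe sets as KEGG Toll-like receptor signalling. At that level 5 of them were higher and 2 lower, with a median difference of -0.0011, against 3.82% higher and 3.96% lower over all probe sets. The receptors and listed genes described above were not removed from this set, whose largest difference was that of Cd14.

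**Figure D4:**
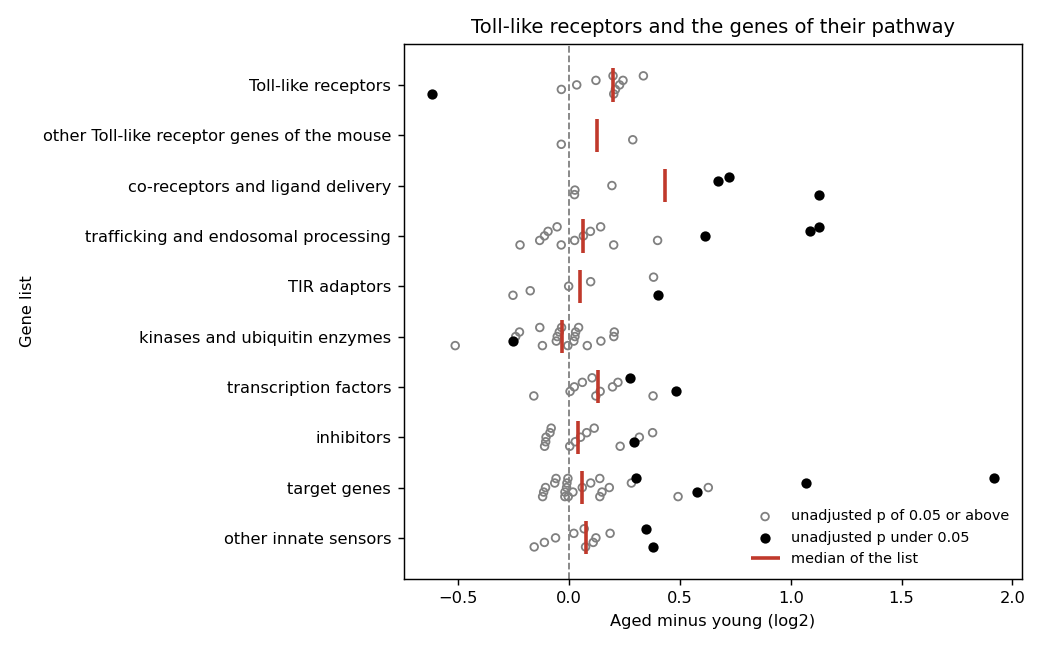
Differences between aged and young choroid plexus (aged minus young, log2, horizontal axis) for each Toll-like receptor and each gene of its pathway, by list, with filled points for an unadjusted p under 0.05 and a red line for the list's median. Tlr4 is the filled point at -0.62, and the largest differences are those of Lcn2 (1.92), Ctss (1.13) and Cd14 (1.13).

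**Figure D5:**
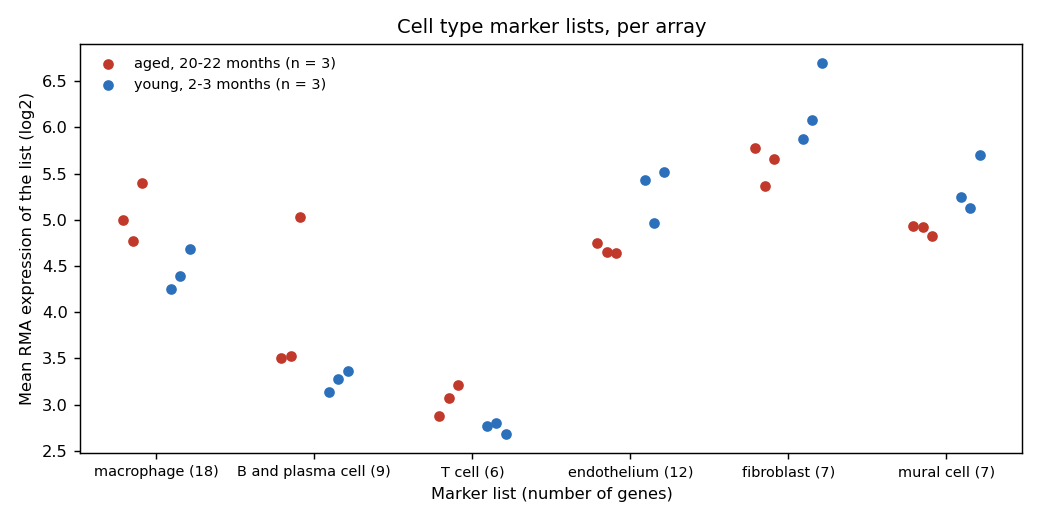
Mean expression of 6 cell type marker lists on each array (log2, vertical axis), aged in red to the left of young in blue. Macrophage means are higher on the aged arrays (4.78 to 5.40 against 4.25 to 4.68), endothelial, fibroblast and mural means are lower, and aged array 3 alone is high for B and plasma cells (5.03).

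The probe sets whose pattern was most like a member's were found by the root mean square difference over the 6 arrays, after each was centred on its own mean. For Tlr4 they were Igfbp4, a binding protein of insulin-like growth factors, at 0.080, AW046200 at 0.084 and the large cadherin Fat4 at 0.089. Igfbp4 was at 6.74, 6.50 and 6.22 in aged tissue, against 6.99, 7.05 and 7.14 in young tissue. For Tlr9 they were Myot at 0.026, Defb45 at 0.027 and Olfr33 at 0.032, all 3 under the guide on all arrays. For Tlr1 they were Slc22a21 at 0.072, the matrix proteoglycan Bgn at 0.073 and LOC100862399 at 0.080.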

How the data were processed

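Total RNA of 6 choroid plexus samples, 1 array each, was measured. The authors deposited log2 expression values per Brainarray probe set, per the file headers, and the submitters' processing notes name RMA and limma 3.14.4. Array model and probe set version: not given in the sources used here. The authors' deposited table also holds a score (signed fold and t) and p-values and q-values. All 25206 probe sets were fitted with limma 3.58.1 in R 4.3.3 (lmFit, eBayes) on age group alone, and p-values were adjusted by Benjamini-Hochberg over all of them, with a threshold of 0.05. Differences are aged minus young in log2, and SE is the moderated standard error. The fit was tested on simulated data, where 9.6% of log2 differences of 0.5 and 87.2% of those of 1 had an adjusted p under 0.05. Differences of the size of most members would thus mostly be missed. The simulated noise was normal and independent between probe sets, so these shares may not carry over to the real arrays. On the real arrays, Ms4a7 at 1.64 had a limma adjusted p of 0.138 and Cd14 at 1.13 one of 0.389. Permutation tests used SciPy 1.17.1.

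Symbols were updated through Entrez identifiers to RefSeq (GRCm38.p6), and 221 of 225 list entries matched. All 10 members are named, then up to 4 genes per pathway list and 3 per marker list, by smallest p, and the 3 nearest patterns of the 3 members with the smallest p. Other genes named, and the KEGG list, were chosen after values were seen. Members and lists were chosen with earlier results of these data known. The 3 arrays per group limit the precision, and no column of per-sample values was unused. Same-numbered arrays were not paired: their deviations from the group means correlated at -0.023, 0.154 and -0.050. The background guide and the within-array pairs were chosen with the data in view, and alternatives are given in the closing section.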

Additional observations from a re-analysis of the deposited data

How the results depend on the processing

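The alternatives tried were rounded values, a further quantile step, arrays set to equal medians, dim probe sets removed in 2 ways, eBayes with trend and robust, weighted arrays, the replicate block, and each array left out. The count of members with an adjusted p under 0.05 was 0 in all of them, and Tlr4 was lower with an unadjusted p under 0.05 in all of them. The filters on dim probe sets left Tlr1, Tlr6, Tlr7 and Tlr13 without a value, and the stricter one also Tlr5, Tlr8 and Tlr9. The number of members with an unadjusted p under 0.05 ran from 1 to 3 over the fits without 1 array, the 3 being Tlr1, Tlr4 and Tlr7 without young replicate 3. Over the whole table the count of calls was 20, and 0 to 52 without 1 array: 52 without aged replicate 1, 0 without aged replicate 2, 8 without aged replicate 3, 2 without young replicate 1, 0 without young replicate 2 and 9 without young replicate 3. These are limma counts, and at an unadjusted p under 0.05 the fits with a count of 0 had 1562 probe sets (without aged replicate 2) and 1503 (without young replicate 2). With the filter at the array median 28 probe sets were called, as with the trend and robust setting. For 3 members the difference changed sign without 1 array: Tlr2 ran from -0.0059 (without aged replicate 1) to 0.093, Tlr6 from -0.068 to 0.018 (without aged replicate 2) and Tlr13 from -0.016 (without aged replicate 3) to 0.38; the cause was not tested. The other 126 member differences under an alternative kept their direction and stayed short of the adjusted threshold. With the replicate block, 15 probe sets were called, 14 higher and 1 lower, and the Tlr4 difference was -0.62 (unadjusted p = 0.00985). The count of 1 inhibitor with an unadjusted p under 0.05 was 0 with the replicate block and with trend and robust. Other list counts at that level moved too. With the replicate block, those of transcription factors and of other innate sensors were 1 each, against 2 each in the main fit. That of kinases and ubiquitin enzymes was 0 against 1, and that of adaptors 2 against 1. Signal near background limits Tlr1, Tlr6, Tlr7, Tlr8, Tlr9 and Tlr13, and also Tlr5, which lay just above the guide.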
